A study of Homo sapiens with 4 samples.

Results

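The mevalonate pathway enzymes described here are 7 genes, ACAT2, HMGCS1, MVK, PMVK, MVD, IDI1 and FDPS, of the 16174 genes in the table. They were chosen by name, and the choice was made on their TPM values in the 4 libraries (day 3 against day 2 within each guide arm, then the guides within each day), so those values are given as a description with no test. TPM is a count of reads per unit of length, brought to the same total for each library. All 7 were listed above 0 in all 4 libraries, and 6 of them, all but MVK, averaged 1 TPM or more, the level used as a filter on low values.

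The libraries are from H9, a long-established human embryonic stem cell line kept in the primed state, read as amplified poly(A) cDNA on a nanopore sequencer. All cells received a piggyBac vector (PB-TetO-AIO-dCas9-BFP-KRAB) carrying a doxycycline-inducible dCas9-BFP-KRAB, a nuclease-dead Cas9 joined to a repressor domain, together with the hyPBase transposase, were selected with puromycin, and were then given doxycycline at 1 µg/mL. In the SNHG26 arm the vector came with 4 pooled guides against the long non-coding RNA gene SNHG26, and in the control arm with control guides. Cells were harvested on day 2 or day 3 of doxycycline, giving 1 library for each arm and day, so all 4 libraries had doxycycline. The labels name neither a clone nor separate cultures, so 2 libraries of an arm differ in day and 2 libraries of a day differ in guides. Day of doxycycline and day of harvest cannot be told apart.

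The mevalonate pathway turns acetyl-CoA into the isoprenoid building blocks isopentenyl and dimethylallyl diphosphate, and joins them into farnesyl diphosphate. Farnesyl diphosphate is the branch point to cholesterol by way of squalene, and to protein prenylation, ubiquinone and dolichol. Transcription of most of the pathway's genes is raised by SREBP2, a membrane-bound factor that is released when sterols in the endoplasmic reticulum are low, and that acts at promoters together with the factors NF-Y and Sp1.

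Libraries were shallow and of similar depth. Counting each read over the whole span of its gene, they held at most 947338 to 1220265 reads, and 10603 to 11162 genes had a value. SNHG26 was listed at 0 and 0.933 TPM with its guides (day 2 and day 3) and at 2.98 and 4.03 TPM with control guides, a difference that did not pass (limma adjusted p = 0.935). Of the 9 stem cell markers listed, all 9 passed the filter, and their summed level ran from 1723 to 1941 TPM. POU5F1, the pluripotency factor OCT4, stood at 1050 to 1212 TPM. Of 18 markers of differentiated or feeder cells, 6 were listed and 2 passed the filter (COL1A1 and COL1A2). FOXA2 and EOMES were at 0 in all 4 libraries. KRT7 was at 0 on day 2 and at 0.417 (SNHG26 guides) and 1.29 TPM (control guides) on day 3. MIXL1 was above 0 only in the control library of day 3, at 1.98 TPM. These values rest on at most 3.76 reads for KRT7 and 1.01 for MIXL1. The 6 markers summed to 7.95 TPM (day 2) and 8.41 TPM (day 3) with SNHG26 guides and to 10.7 and 15.2 TPM with control guides.

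To show the regulatory letters next to these genes, RefSeq promoter windows (GRCh38.p14, 250 bases before the start site to 50 after it) were taken for 6 of the 7 enzymes. HMGCS1, MVK, PMVK, MVD, IDI1 and FDPS matched by symbol, and where RefSeq gives several windows the one nearest the gene's start in the table was used. Printed are the upstream stretches of 4 enzymes that lie outside the gene as the table, RefSeq and GENCODE release 29 place it, with the NF-Y box CCAAT on either strand (ATTGG on the other) in capitals. Each runs 5′ to 3′ on the gene's own strand. They are chr5:43313513-43313662 (minus strand) for HMGCS1, chr16:88663162-88663341 (minus) for MVD, chr10:1049171-1049369 (minus) for IDI1 and chr1:155308616-155308747 (plus) for FDPS.
HMGCS1: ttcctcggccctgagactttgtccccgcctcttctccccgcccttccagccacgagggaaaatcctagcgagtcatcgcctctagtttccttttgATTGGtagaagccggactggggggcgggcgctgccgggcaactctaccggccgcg
MVD: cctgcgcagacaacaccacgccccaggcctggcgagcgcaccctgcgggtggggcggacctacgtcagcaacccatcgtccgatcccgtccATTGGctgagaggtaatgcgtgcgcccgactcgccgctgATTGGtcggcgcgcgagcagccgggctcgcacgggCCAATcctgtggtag
IDI1: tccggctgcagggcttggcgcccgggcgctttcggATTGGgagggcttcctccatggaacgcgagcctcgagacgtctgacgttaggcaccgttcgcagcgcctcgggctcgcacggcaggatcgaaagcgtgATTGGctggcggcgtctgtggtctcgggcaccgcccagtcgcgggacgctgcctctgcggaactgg
FDPS: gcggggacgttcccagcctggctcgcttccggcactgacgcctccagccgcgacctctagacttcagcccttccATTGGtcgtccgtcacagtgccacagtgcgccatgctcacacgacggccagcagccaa
An NF-Y box was found in 5 of the 6 windows, all but that of PMVK, against 34.6% of 35116 RefSeq promoter windows of the same length. The MVK window held 5 boxes, MVD and FDPS 3 each, and HMGCS1 and IDI1 2 each. Some of these lie beyond the printed stretches, and the last letters printed for FDPS are a box that ends 1 base inside the gene. The Sp1 box GGGCGG was found in 6 of 6 windows, against 45.0% of all windows, searched on both strands as were all motifs. The sterol regulatory element searched as TCACNCCAC was in 0 of 6, against 1.13% of all windows. Shortened by 1 base to TCACNCCA, a form added after the first search was seen, it was in 1 of 6 (MVK), against 3.95%. These are exact letter matches within a short window and say nothing of binding. Variant forms of an element are not counted, so 0 of 6 does not show that a sterol element is absent.

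Between day 2 and day 3 of doxycycline, 6 of the 7 enzymes had both day 3 libraries below both day 2 libraries, and 4 of them, ACAT2, HMGCS1, MVD and FDPS, were at least 2-fold lower in both arms. Over the 8274 genes past the filter, 18.4% had both day 3 libraries below both day 2 libraries and 3.92% were at least 2-fold lower in both arms. Because the members were chosen on this contrast, nothing is read from the difference. The summed level of the 7 enzymes was 560.7 TPM on day 2 and 249.7 TPM on day 3 with SNHG26 guides, and 524.5 and 151.2 TPM with control guides. In bulk RNA, fewer cells of a type and less RNA per cell cannot be told apart.

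**Figure D1:**
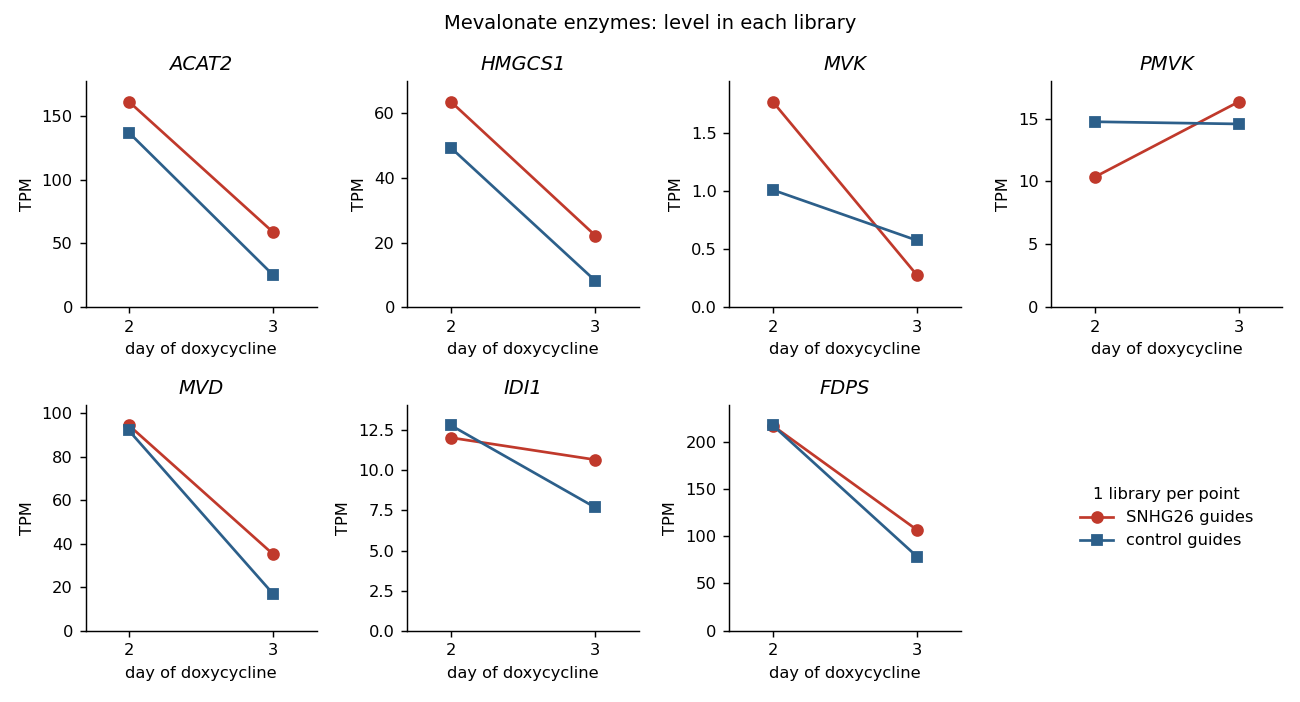
TPM (vertical axis, linear, starting at 0 and scaled per gene) of each mevalonate enzyme on day 2 and day 3 of doxycycline, 1 library per point, with SNHG26 guides as circles and control guides as squares. Lines join the libraries of an arm. ACAT2, HMGCS1, MVD and FDPS descend steeply in both arms, whereas PMVK does not descend with SNHG26 guides.

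ACAT2 and HMGCS1 carry the first condensations, from acetyl-CoA to HMG-CoA. ACAT2 (chr6:159762045-159779112, plus strand), the cytosolic acetoacetyl-CoA thiolase, stood at 161.4 TPM (day 2) and 58.6 TPM (day 3) with SNHG26 guides and at 137.1 and 25.01 TPM with control guides. Both day 2 libraries were far above both day 3 libraries, and the control library of day 3 was the lowest. The day 2 mean was 149.3 ± 17.2 TPM and the day 3 mean 41.8 ± 23.8 TPM (SD, n = 2 arms), with day 2 over day 3 ratios of 2.75 and 5.48 in the SNHG26 and control arms. HMGCS1 (chr5:43287470-43313512, minus strand), the cytosolic HMG-CoA synthase, showed the same order of libraries. It stood at 63.7 and 22.2 TPM with SNHG26 guides and at 49.4 and 8.17 TPM with control guides. Its day 2 over day 3 ratios were 2.87 and 6.05, the latter being the largest control-arm ratio among the 7. In the control library of day 3, HMGCS1 rested on at most 31.7 reads and ACAT2 on at most 63.6. Counting error there is at least 17.8% and 12.5%, so the order of their control-arm ratios is not resolved. On log2(TPM + 1), which understates changes of low genes, the mean difference of day 3 from day 2 was -1.93 ± 0.68 for ACAT2 and -1.97 ± 0.69 for HMGCS1 (SD, n = 2 arms).

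MVK and PMVK phosphorylate mevalonate in turn, and these kinases were the weakest or least alike of the set. MVK (chr12:109573255-109598125, plus strand) stood at 1.77 and 0.273 TPM with SNHG26 guides and at 1.01 and 0.573 TPM with control guides. The day 3 libraries were the lower ones, but these levels rest on at most 6.03, 1.04, 3.12 and 2.12 reads, so no change in MVK can be resolved at this depth. PMVK (chr1:154924740-154936719, minus strand), which makes mevalonate diphosphate, stood at 10.3 and 16.4 TPM with SNHG26 guides and at 14.8 and 14.6 TPM with control guides. Here the days overlapped, and the lowest library was that of day 2 with SNHG26 guides. PMVK is the only one of the 7 whose values resolve into whole reads in every library, 17 and 30 with SNHG26 guides and 22 and 26 with control guides. The exact 95% Poisson intervals, which cover counting error only, were 9.90 to 27.2 and 20.2 to 42.8 reads in the SNHG26 arm and 13.8 to 33.3 and 16.98 to 38.1 reads in the control arm, all overlapping.

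MVD, IDI1 and FDPS finish the pathway. MVD (chr16:88651935-88663161, minus strand), the decarboxylase that yields isopentenyl diphosphate, stood at 94.5 and 35.1 TPM with SNHG26 guides and at 92.1 and 16.8 TPM with control guides. Its day 2 libraries lay close together (93.3 ± 1.69 TPM, SD, n = 2 arms), and its day 3 libraries were lower and further apart (26.0 ± 12.9 TPM). The day 2 over day 3 ratios were 2.69 and 5.47. In the control library of day 3, MVD rested on at most 28.1 reads, a counting error of at least 18.8%. IDI1 (chr10:1039152-1049119, minus strand), the isomerase between isopentenyl and dimethylallyl diphosphate, was lower on day 3 by less than the others. It stood at 12.03 and 10.7 TPM with SNHG26 guides and at 12.8 and 7.68 TPM with control guides, on at most 16.5, 16.3, 15.9 and 11.4 reads. Counting error alone is then at least 24.7% of the value on day 2 and 24.8% on day 3 in the SNHG26 arm, where the ratio between days was 1.13. FDPS (chr1:155308748-155320666, plus strand), the farnesyl diphosphate synthase inhibited by nitrogen-containing bisphosphonates, had the highest level of the 7 per genomic span in every library. It stood at 216.9 and 106.5 TPM with SNHG26 guides and at 217.3 and 78.3 TPM with control guides. Its day 2 libraries were nearly equal (217.1 ± 0.235 TPM), and the ratios between days were 2.04 and 2.77.

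**Figure D2:**
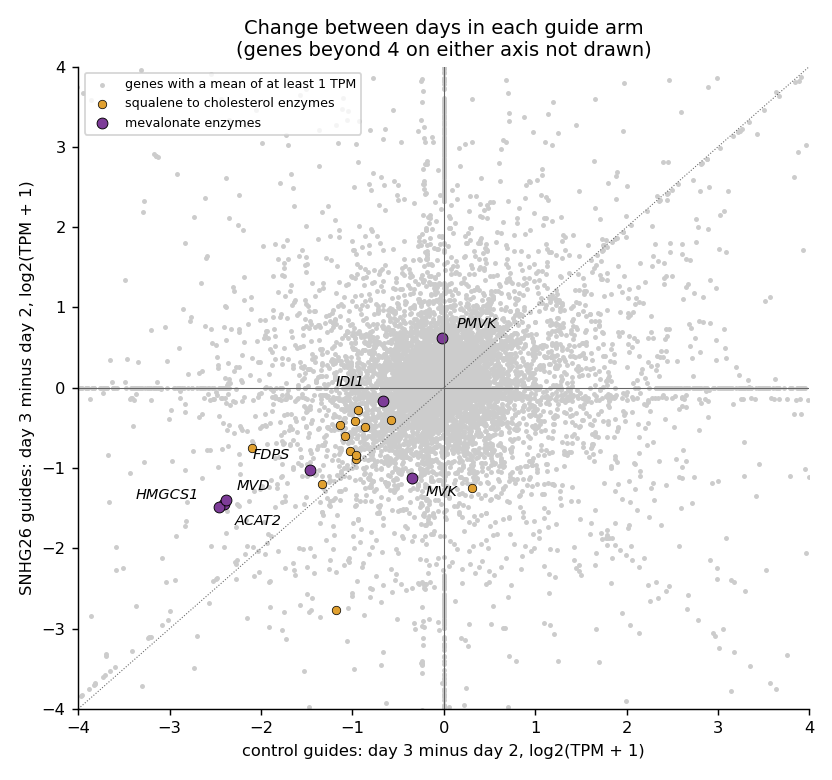
Day 3 minus day 2 on log2(TPM + 1) in the control arm (horizontal axis) and in the SNHG26 arm (vertical axis), 1 point per gene, for genes averaging 1 TPM or more (grey), squalene to cholesterol enzymes and all 7 mevalonate enzymes. The dotted line marks equal change. ACAT2, HMGCS1 and MVD lie together near -2.4 in the control arm, and PMVK lies apart from the other 6.

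Among the 7, ACAT2, HMGCS1 and MVD formed a tight trio. Their log2 differences between days were -1.45, -1.48 and -1.40 in the SNHG26 arm and -2.41, -2.46 and -2.38 in the control arm. FDPS followed at -1.02 and -1.46, then MVK at -1.12 and -0.35 and IDI1 at -0.16 and -0.67. PMVK was at 0.61 and -0.02. The median over all 7 was -1.12 in the SNHG26 arm and -1.46 in the control arm, beside medians of 0.000024 and -0.016 over the 8274 genes. By level per genomic span on day 2, FDPS was highest, followed by ACAT2, MVD and HMGCS1, and then by PMVK and IDI1, which overlapped, with MVK last. On day 3, the ranges of PMVK, IDI1 and MVD each overlapped that of HMGCS1, and the range of MVD overlapped that of ACAT2.

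Within each day, the guides were then compared. On day 2 the ratios of SNHG26 guides over control guides were 1.18 for ACAT2, 1.29 for HMGCS1, 1.03 for MVD, 0.940 for IDI1 and 0.998 for FDPS. The kinases, on few reads, were further from 1 on that day, at 1.75 for MVK and 0.701 for PMVK. On day 3, 6 of the 7 enzymes, all but MVK, were higher with SNHG26 guides. Of the 8274 genes past the filter, which do not include MVK, 51.6% were higher. The ratios on day 3 were 2.34 for ACAT2, 2.72 for HMGCS1 and 2.09 for MVD, and 1.39, 1.36 and 1.12 for IDI1, FDPS and PMVK. In the control library of day 3, ACAT2, HMGCS1 and MVD rested on at most 63.6, 31.7 and 28.1 reads. MVK, on at most 1.04 and 2.12 reads, was at 0.476. The median log2 difference between guides over the 7 was 0.04 on day 2 and 0.44 on day 3. The ratios on both days and the steeper descent of ACAT2, HMGCS1, MVD, IDI1 and FDPS in the control arm are made of the same 4 values and are not separate results.

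Both SNHG26-guide libraries were above both control libraries for 0 of the 7 enzymes, against 16.1% of all genes tested. For 6 of the 7, all but PMVK, the order of the days fixed this outcome. With both day 3 libraries below both day 2 libraries, the SNHG26 library of day 3 lies below the control library of day 2. Nothing about the guides is read from this count. For ACAT2, HMGCS1, MVD and FDPS the difference between days was larger than the difference between guides on either day. Averaged over days, the log2 difference between guides was 0.72 ± 0.68 for ACAT2, 0.85 ± 0.69 for HMGCS1 and 0.53 ± 0.69 for MVD (SD, n = 2 days). Without the control library of day 3, the averaged difference was -0.49, -0.38 and -0.67 for these 3, and without that of day 2 it was 1.92, 2.08 and 1.72, since either comparison leaves the control arm with a single day. Across all genes, 0 of 8274 (0%) passed a limma adjusted p of 0.05 between guides, and 337 had an unadjusted p under 0.05.

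**Figure D3:**
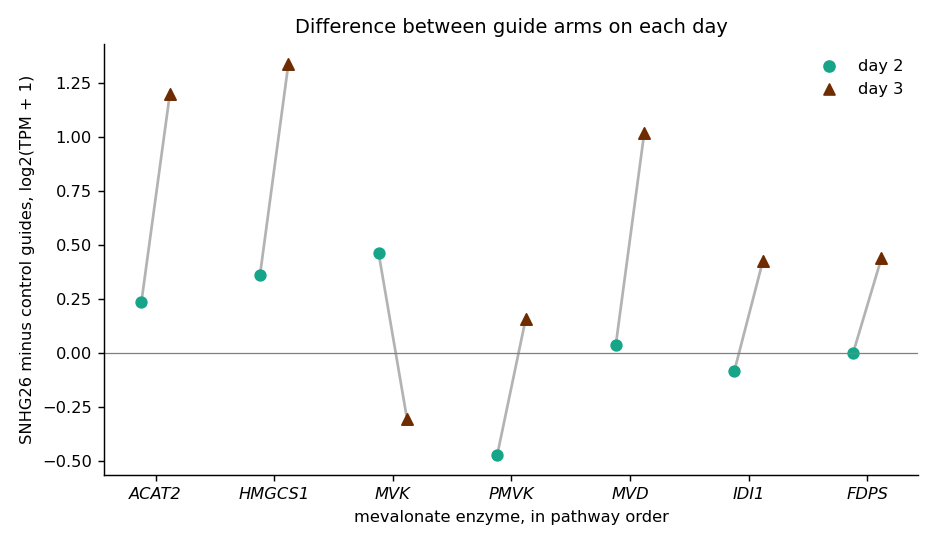
Difference between guide arms (SNHG26 minus control, log2(TPM + 1)) on day 2 (circles) and day 3 (triangles) for each mevalonate enzyme in pathway order, from 1 library per arm and day. ACAT2, HMGCS1 and MVD lie between 0.04 and 0.36 on day 2 and between 1.02 and 1.34 on day 3, and MVK goes the other way.

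The rest of the sterol pathway was taken from lists, all genes of which were tested between days with limma over the whole table. That fit called 3 of 8274 genes (0.0363%), with 547 at an unadjusted p under 0.05, and the 3 were short RNAs outside every list (SNORD68, MT-TG and RNVU1-31, named after their values were seen). No gene of any list passed, in either direction. The squalene to cholesterol enzymes, which take farnesyl diphosphate onwards, had 12 of 13 genes lower on day 3 in both arms and 11 of 13 with both day 3 libraries below both day 2 libraries. Over the 8274 genes tested, 24.8% were lower and 24.3% higher on day 3 in both arms, and 18.4% had both day 3 libraries the lower. The list's median log2 difference was -0.84, beside 0.0071 over all genes tested, and the lowest adjusted p was 0.424 (4 of 13 unadjusted under 0.05). FDFT1, the squalene synthase that draws directly on FDPS's product, stood at 28.1 and 18.3 TPM with SNHG26 guides and 20.6 and 9.20 TPM with control guides (limma adjusted p = 0.760). SQLE, the squalene epoxidase, stood at 39.3 and 27.7 TPM and at 36.8 and 19.8 TPM (limma adjusted p = 0.760). For both enzymes the day 3 libraries were the lower ones, and the ratios between days were below those of ACAT2, HMGCS1 and MVD.

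The other users of isoprenoids did not show one direction. Of the 10 isoprenoid branch genes past the filter, 3 were lower and 5 higher on day 3 in both arms, with a median of 0.04 and 0 calls (3 unadjusted). GGPS1, which extends farnesyl to geranylgeranyl diphosphate, stood at 4.57 and 5.11 TPM with SNHG26 guides and at 9.27 and 4.21 TPM with control guides, so its days stood in opposite order in the 2 arms. IDI2, the paralog of IDI1, is not analysed here. Fatty acid synthesis genes, many of which respond to the related factor SREBP1, had 7 of 9 lower on day 3 in both arms (24.8% of all genes tested), with a median of -0.47 and 0 calls (2 unadjusted).

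Sterol sensing and uptake genes were mostly near the floor. Of the 9 past the filter, 3 were lower and 3 higher in both arms, with a median of -0.0036 and 0 calls (3 unadjusted). INSIG1, which retains SREBP in the endoplasmic reticulum and is itself an SREBP target, was listed at 2.94 and 0 TPM with SNHG26 guides and at 11.01 and 0 TPM with control guides. Those day 2 values rest on at most 5.03 and 17.1 reads (limma adjusted p = 0.556). SREBF2, which encodes SREBP2, was at 0 and 0.088 TPM with SNHG26 guides and at 4.26 and 0 TPM with control guides, so its level could not be followed at this depth. INSIG2, named after its values were seen, was higher on day 3 (1.98 to 8.29 TPM and 1.07 to 9.16 TPM, limma adjusted p = 0.340).

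**Figure D4:**
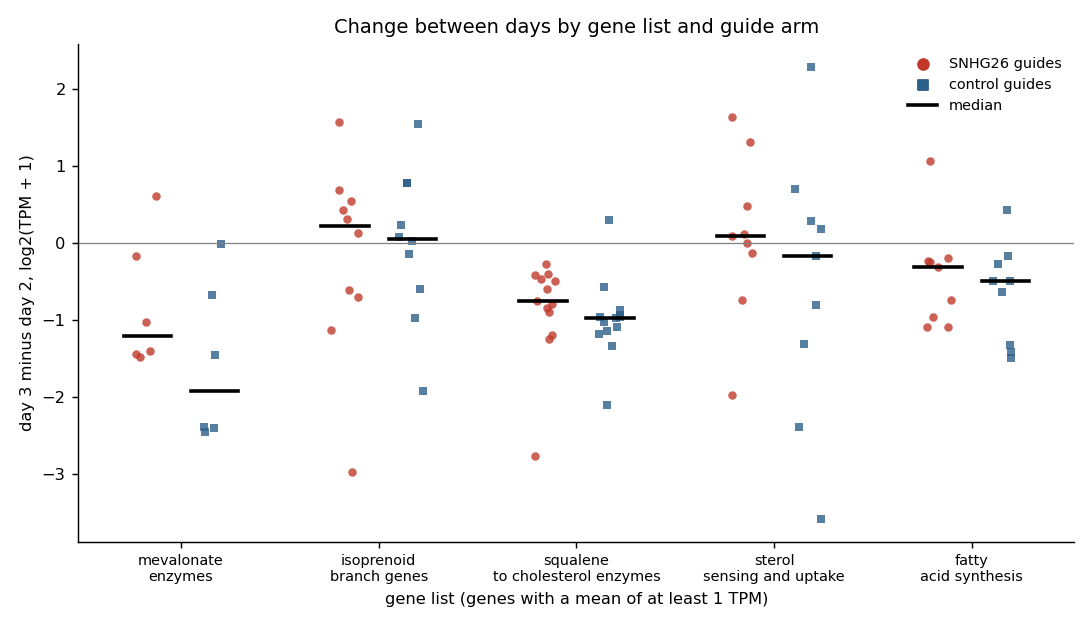
Day 3 minus day 2 on log2(TPM + 1) for genes averaging 1 TPM or more in 5 gene lists, with SNHG26 guides as circles, control guides as squares and the median of each as a bar. Mevalonate enzymes (6 past the filter) have medians of -1.21 and -1.92, squalene to cholesterol enzymes -0.75 and -0.97, and isoprenoid branch genes 0.22 and 0.05.

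Among 1142 other genes averaging 50 TPM or more, the profile over the 4 libraries nearest to the mean profile of the 7 enzymes was that of SCD, the stearoyl-CoA desaturase. Likeness was the Euclidean distance between log2(TPM + 1) values after each gene's mean was taken off. SCD lay at a distance of 0.196, with 86.6 and 40.1 TPM in the SNHG26 arm and 70.8 and 26.0 TPM in the control arm. MRPS26 (0.279), a mitochondrial ribosomal protein gene, APOC1 (0.349), an apolipoprotein gene, EBP (0.355), the sterol isomerase of cholesterol synthesis, and ERG28 (0.404), a scaffold of sterol enzymes, came next. Of the enzymes themselves, FDPS was nearest to their mean (0.175) and PMVK farthest (1.51). With 4 libraries, likeness mainly ranks genes by their difference between days.

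Overlapping genes could share reads with 2 of the enzymes, since the sources used here do not give whether counting used strand. TCP1, a chaperonin subunit on the opposite strand, overlaps the 3′ end of ACAT2 by 615 bases as listed. It stood at 91.9 and 75.6 TPM with SNHG26 guides and at 99.2 and 83.9 TPM with control guides, a log2 difference between days of -0.26 (SE 0.17). At its other end ACAT2 overlaps SOD2 by 485 bases and SOD2-OT1 by 288 bases, both on the opposite strand, and both were lower on day 3 in each arm. SOD2, the mitochondrial superoxide dismutase gene, stood at 6.71 and 3.64 TPM with SNHG26 guides and at 5.35 and 2.74 TPM with control guides (limma adjusted p = 0.760). SOD2-OT1 was listed at 3.51 and 0 TPM and at 3.87 and 0 TPM (limma adjusted p = 0.425). Its span is only 2075 bases, and 1 read on 10 kb is 0.729 and 0.803 TPM in the day 2 libraries. Its values are therefore at the floor, and no change in SOD2-OT1 can be resolved at this depth. Whether reads were shared with ACAT2 was not tested. MMAB, which acts in cobalamin metabolism and overlaps the start of MVK by 326 bases, stood at 4.69 and 2.60 TPM and at 4.45 and 3.47 TPM. Within 5 kb lay CYBA and SNAI3-AS1 (MVD), WDR37 (IDI1) and RUSC1 (FDPS), and HMGCS1 and PMVK had no listed neighbour that near. CYBA, next to MVD, was higher on day 3, at 6.57 and 18.5 TPM and at 7.24 and 14.7 TPM (limma adjusted p = 0.493), while MVD was lower. The processed pseudogene FDPSP1 was listed at 6.81, 6.10, 0 and 6.27 TPM (SNHG26 guides on day 2 and day 3, then control guides), against 78.3 TPM or more for FDPS. FDPSP1 spans only 1071 bases, so these values are at the floor and rest on very few reads. The upper bounds for FDPS were 139 to 355 reads, so the TPM of the 2 genes do not compare their reads. Reads of FDPS and its pseudogene may be split between them by the counting.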

How the data were processed

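Gene-level TPM of 4 libraries (16174 genes) were deposited by the authors in 1 table. Per the submitters' processing notes, minimap2 2.24-r1122 and GRCh38 were used. The counting tool, annotation and strand setting are not given in the sources used here. Per the labels' protocols, cDNA was made with oligo-dT and strand switching and amplified by PCR.

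The value of 1 read was set on the 13 mitochondrial mRNAs, which resolve into whole reads but have no introns. It gives 1 read on 10 kb as 0.729, 0.653, 0.803 and 0.672 TPM (SNHG26 day 2, day 3, control day 2, day 3). Of 13840 genes with a value, 2853 (20.6%) came out whole within 0.0001 read, PMVK with its span of 11980 bases among them. For these the TPM divide by the listed genomic span, as judged from the values. For other genes the divisor was not settled and may be shorter than the listed span, so reads on the full span are upper bounds. TPM can also change at equal reads if a gene's transcripts differ in span and their mix shifts.

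Differences were taken on log2(TPM + 1). The 8274 genes averaging 1 TPM or more entered limma 3.58.1 (R 4.3.3; lmFit and eBayes with trend), 2 libraries against 2. P-values were adjusted by Benjamini-Hochberg and read at 0.05. The script was tested on simulated data. P-values measure only the spread between these libraries, which may be technical. The members, gene lists and naming rule were chosen with earlier results of these data known. The rule names the 7 enzymes, a fixed set of sterol pathway genes (some of which are not reported here), list genes past the threshold, the 5 genes most like the enzymes, neighbours within 5 kb and pseudogenes. Alternatives were pseudocounts, filters, scaling, the moderation trend, a block and leaving out each library. The block was the guide arm in the fit between days and the day in the fit between guides. The filter on 20 reads on the gene span, with and without the block, and the shortened sterol motif were chosen after seeing the data.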

Additional observations from a re-analysis of the deposited data

Results flagged for a closer look

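Some differences had opposite directions in the 2 parts of a contrast, with 1 library on each side, and whether the parts differ was not tested. Between days, the SNHG26 arm minus the control arm was 0.63 on log2(TPM + 1) for PMVK (higher on day 3 with SNHG26 guides and marginally lower with control guides), 1.11 for GGPS1 and 2.52 for SREBF2. Between guides, day 3 minus day 2 was -0.77 for MVK, 0.63 for PMVK, 0.51 for IDI1, 0.44 for FDPS, 1.11 for GGPS1 and 2.52 for SREBF2, with the guides in opposite order on the 2 days in each case. For PMVK, GGPS1 and SREBF2 both statements are the same crossed difference of 4 libraries.

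FDPS had guide differences of -0.0022 on day 2 and 0.44 on day 3, so its opposite signs rest on a day 2 difference near 0. SREBF2 was listed at 0 in 2 libraries.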

How the results depend on the processing

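The sign of the difference between days was kept for each of the 7 enzymes under every alternative run, while the sign of the averaged difference between guides changed in 1 to 3 alternatives for each. The median difference between days of the enzymes past the filter, -1.57, ran from -1.58 to -1.02 when 1 library was left out. Their median difference between guides, 0.37, ran from -0.38 (without the control library of day 3) to 1.33 (without the control library of day 2). Leaving out 1 library leaves an arm with a single day, so that difference then includes the day. The filter was applied anew in each run. Without the SNHG26 or the control library of day 3, MVK also passed, and both medians there cover 7 enzymes rather than 6. Part of each range can therefore come from the change of gene set. The 3 genes called between days became 0 without a filter, without a trend in eBayes, after quantile normalization, with pseudocounts of 0.1 and 5, and with 20 reads on the gene span. They also became 0 without each library in turn, where the lone library is assumed to vary like the others. The count was also 3 among genes averaging 5 TPM or more and after median ratio scaling. The cause was not tested. No gene was called between guides in any of these. Libraries share a number across arms through the day of doxycycline. Deviations of same-day libraries correlated at 0.046 over 8274 genes, and those of same-arm libraries at -0.0065. Since the shared number is the day, a block on it cannot be fitted beside the day. The block was therefore the guide arm in the fit between days and the day in the fit between guides. With the block, 0 genes were called between days and 0 between guides. The same held with the block and 20 reads on the gene span together, and no list gene was called. The MVK difference between days moved from -0.74 to -1.52 with a pseudocount of 0.1. Depth limits MVK, IDI1, PMVK, GGPS1, SREBF2, INSIG1 and INSIG2, each on at most 39.3 reads in any library. In the control library of day 3 it also limits HMGCS1 and MVD, on at most 31.7 and 28.1 reads. Depth limits SOD2-OT1 and FDPSP1 as well, which are short and at the floor. The count of windows with an NF-Y box was 5 of 6 with or without the 50 bases after the start.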
